A study of Homo sapiens with 267 samples.

Results

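Immediate-early genes are switched on within minutes of a signal, without new protein synthesis, and their messages are short-lived. Growth factor receptors and oncogenic kinases reach them through the RAS-RAF-MEK-ERK cascade, which activates the ternary complex factors that sit with serum response factor at CArG boxes, and through kinases that phosphorylate CREB at cyclic AMP response elements. In K562, a human chronic myeloid leukaemia line in blast crisis, the fusion kinase BCR-ABL1 is constantly active and feeds this cascade. The set described here is 10 such genes, found in the count table by Ensembl identifier, of 63677 genes in all. They are EGR1, EGR2 and EGR3, which encode zinc finger transcription factors, FOS, FOSB, JUN and JUNB, which encode subunits of the AP-1 dimer, and IER2, IER3 and PHLDA1. IER2 encodes a small nuclear protein, IER3 a stress response protein, and PHLDA1 a pleckstrin homology-like protein induced by ERK.

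K562 cells were captured singly on the Fluidigm C1, a microfluidic device that makes full-length cDNA from each captured cell, and libraries of bulk RNA from the same cells were sequenced with them. Of 267 labelled libraries 263 had counts, and 242 were kept because their top 500 genes held at most 70% of the reads on genes. In the Hoechst run (96 labelled, 82 kept), untreated cells labelled as passages 90-92 were stained with Hoechst and propidium iodide. The other 2 runs used cells labelled as passages 20-22 with a fixable red dead-cell stain and a CellTracker dye. Green CMFDA marked untreated cells (benzene run, 31 kept of 38; imatinib run, 50 kept of 51). Orange CMRA marked cells given 10 mM benzene for 3 h (34 kept of 37) or 1 µM imatinib, an inhibitor of the ABL kinase, for 1 h (45 kept of 45). The dye and the drug therefore cannot be told apart. Each run held fresh cells and cells fixed with DSP, a reversible amine crosslinker. The labels used here do not say which libraries were fresh, fixed or bulk, so these cannot be told apart within a group, and values are given per library and not per cell.

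Kept libraries held 50358 to 2043351 reads on genes, with group medians between 1231546 and 1345125. All 10 K562 marker genes, among them GATA1, KLF1 and TFRC, had a median level above 0 in every group. Of 7 markers of other cell types only EPCAM did, and its log2 ratio between stains was 0.05 in the imatinib run and -0.06 in the benzene run. In the imatinib run the median Green and Orange libraries had 8082 and 7797 genes detected, a mitochondrial share of 6.32% and 7.02%, and 7.61% and 8.48% of reads on ERCC spike-ins; the part of these in the results was not tested. Libraries of the benzene run were less complex, with medians of 5963 genes in Green and 5859.5 in Orange. Every stain of a run is 1 batch of cells, and its libraries are not replicates of a treatment, so no test of a treatment was possible and no p-value is given. Intervals cover counting error only, and reads are not independent molecules, since the libraries carry no molecular identifiers.

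Of the members, 8 have an entry among the RefSeq promoter sequences of assembly GRCh38.p14. The 150 bases before the annotated start are shown for the 6 members that were detected widely enough to compare stains, to show which of them carry, close to the start, the letters of the elements named above. Positions are on GRCh37, from an exact match of each sequence. Capitals mark CArG boxes and the letters TGACG, the core of the cyclic AMP response element, on either strand.
EGR1 (chr5:137801018-137801167, plus strand): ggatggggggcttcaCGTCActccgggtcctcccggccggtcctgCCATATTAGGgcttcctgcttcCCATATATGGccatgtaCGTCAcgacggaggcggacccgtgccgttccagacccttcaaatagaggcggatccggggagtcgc
FOS (chr14:75745381-75745530, plus strand): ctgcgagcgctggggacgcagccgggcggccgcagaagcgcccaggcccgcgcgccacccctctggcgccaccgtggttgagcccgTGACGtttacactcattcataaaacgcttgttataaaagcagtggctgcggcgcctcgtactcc
FOSB (chr19:45971104-45971253, plus strand): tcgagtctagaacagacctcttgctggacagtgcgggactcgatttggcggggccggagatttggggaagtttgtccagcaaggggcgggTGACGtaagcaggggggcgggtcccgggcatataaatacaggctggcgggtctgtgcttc
JUN (chr1:59249720-59249869, minus strand): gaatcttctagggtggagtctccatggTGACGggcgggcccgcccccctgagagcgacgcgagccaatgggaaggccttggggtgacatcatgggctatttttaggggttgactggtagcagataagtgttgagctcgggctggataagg
JUNB (chr19:12902150-12902299, plus strand): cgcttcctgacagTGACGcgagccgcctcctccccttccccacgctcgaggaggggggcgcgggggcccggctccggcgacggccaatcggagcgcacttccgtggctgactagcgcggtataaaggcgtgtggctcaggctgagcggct
IER2 (chr19:13261075-13261224, plus strand): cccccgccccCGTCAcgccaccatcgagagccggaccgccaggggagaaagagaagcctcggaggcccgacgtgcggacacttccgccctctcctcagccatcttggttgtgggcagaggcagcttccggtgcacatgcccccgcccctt

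TGACG was present in the 250 bases before the start of all 6 of these genes, and in 21.2% of the 35116 RefSeq promoters. It starts 64 bases before the start site in FOS, 60 in FOSB, 123 in JUN, 137 in JUNB, 140 in IER2, and at both 135 and 66 in EGR1. The whole palindrome TGACGTCA, which contains TGACG and was found in 1.65% of promoters, was in none of them. Only EGR1 among the 6 held CArG boxes in this window, at 105 and 83 bases before the start, against 1.16% of all promoters with at least 1. The 3 FOS, FOSB and JUNB windows also held TATAAA, at 33, 30 and 31 bases before the start, as did 10.7% of promoters. The AP-1 letters TGANTCA (6.57% of promoters) were in none of the 6. The EGR letters GCGNGGGCG (8.41%) were in EGR1 alone, 198 bases before the start and so outside the bases printed above. Such matches are letters only, and elements farther upstream are outside the window.

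The members covered a wide range of levels, given here per kilobase of merged exons so that genes can be compared. EGR1 led in the Hoechst run with 132 CPM (reads of a gene per 1000000 reads on genes) per kilobase, in the benzene run with 72.7 and in the imatinib run with 108. FOS stood next to it in both CellTracker runs, at 55.7 and 99.9 CPM per kilobase, but reached only 4.15 in the Hoechst run. IER2 was the second in the Hoechst run at 16.01 and the third in the other runs at 10.6 (benzene) and 7.86 (imatinib). JUN, JUNB and FOSB lay between 2.74 and 6.54 CPM per kilobase in the CellTracker runs, close together compared with the spread among libraries. EGR2 and EGR3 were at or near 0 in all runs. In imatinib run Orange, FOS (57.1 CPM per kilobase) and EGR1 (56.8) were level.

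**Figure D1:**
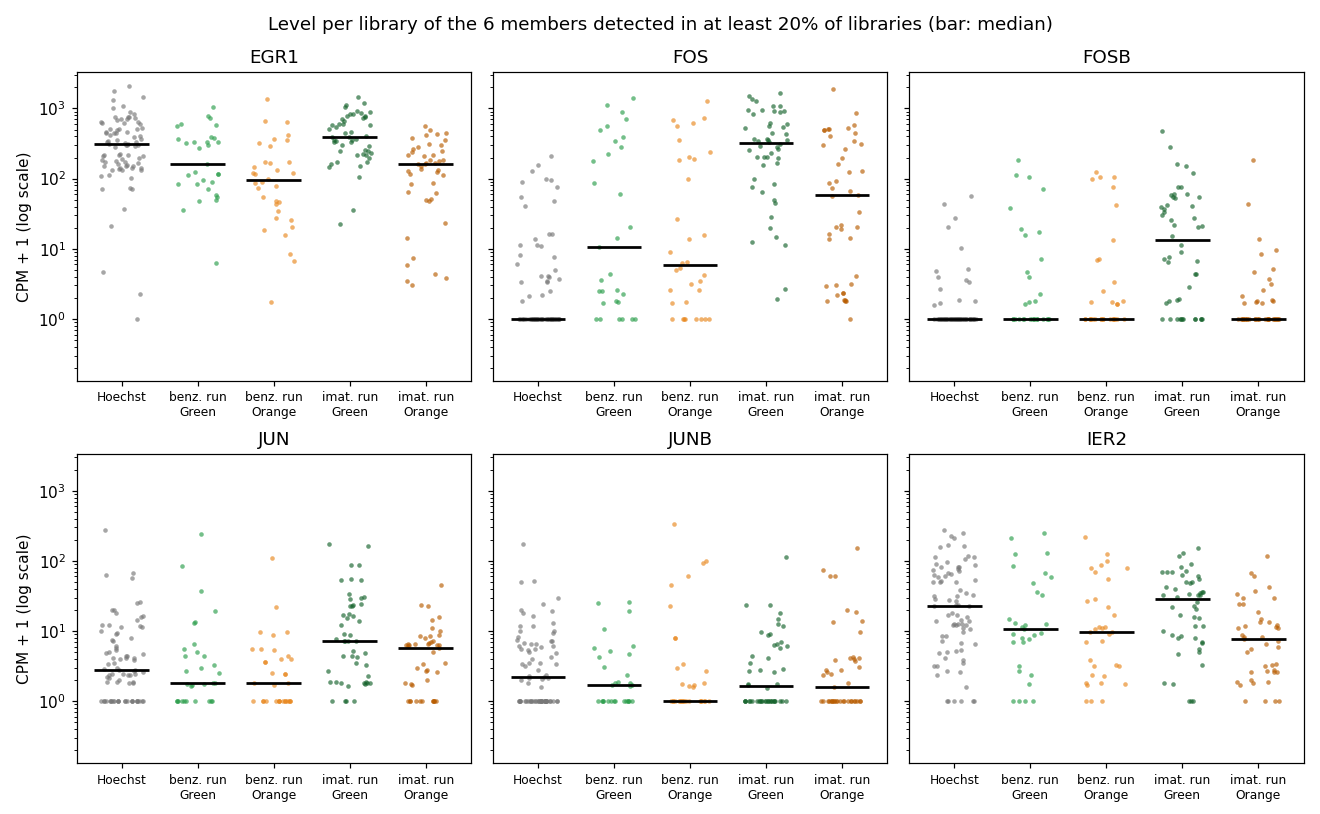
Level of the 6 widely detected members in each kept library, as CPM + 1 on a log scale, by group; the bar is the median. EGR1 forms 1 broad cloud in every group, while FOS spans from 0 to 1872 CPM, and the imatinib run Green libraries sit higher than the Orange for EGR1, FOS, FOSB and IER2.

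EGR1, on chromosome 5 (chr5:137801168-137804992, plus strand), was found in nearly every library. A library was counted as expressing a gene when it held more than 2 reads of it. By that measure EGR1 was detected in 79 of 82 Hoechst run libraries (96.3%), in 64 of 65 benzene run libraries and in all 95 libraries of the imatinib run. In the Hoechst run its level ran from 0 over a median of 309 to 2096 CPM. In that run 74 of 82 libraries had at least 100 CPM of EGR1. Its coefficient of variation (CV) over libraries was 0.929 there, the lowest of the members, against a median of 0.725 for the 200 genes nearest in mean level. Its SD of log2(CPM + 1) in that run was 1.82, above that of JUN (1.77) and JUNB (1.74) and below that of FOS (2.23) and IER2 (2.18).

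EGR2 and EGR3, which encode relatives of EGR1 with nearly the same DNA-binding domain, were barely seen. EGR2 had 14 reads in the Hoechst run, 85.7% of them in 1 library, 5 reads in 1 Green library of the imatinib run and none in the benzene run, where 3 reads would be 0.034 CPM. EGR3 had 12 reads in the Hoechst run, 83.3% of them in 1 library, and 1 read in the benzene run. At this depth neither could be compared between stains.

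FOS (chr14:75745529-75748933, plus strand), the classic partner of JUN, differed widely between runs. It was detected in 32.9% of Hoechst run libraries, 61.5% of benzene run libraries and 88.4% of imatinib run libraries. With each library thinned to 300000 reads and shallower ones left out, the shares were 20%, 43.1% and 84.2%. Its summed level was 13.2, 177 and 318 CPM in the same order. EGR1 did not share that order, with 415 CPM in the Hoechst run, 228 in the benzene run and 338 in the imatinib run.

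Within the benzene run FOS was high in some libraries and near 0 in others. Green libraries ran from 0 over a median of 9.45 to 1397 CPM, and Orange libraries from 0 over 4.84 to 1293 CPM. Below 10 CPM lay 16 of 31 Green and 20 of 34 Orange libraries, and at 100 CPM or more lay 11 and 10, which left 4 in each stain between. This split went only in part with the number in the library title. The kept libraries at 100 CPM or more had lower numbers, and every kept library numbered above them had 25.5 CPM or less. Among the lower numbers, many libraries below 10 CPM lay beside the high ones. A Green library left out by the complexity limit had a higher number and 1130 CPM. What the title numbers stand for is not given, and their part was not tested. The Hoechst run had 66 of 82 libraries below 10 CPM and 3 at 100 CPM or more. The Hoechst run differs from the others in passage label, stain and lot of cells. By the paper its fixed cells were also stored for longer, and its dead-stained cells were sequenced while those of the other runs were excluded. Its sequencer and read length differed too. The FOS level of the Hoechst run cannot be told apart from any of these.

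FOSB (chr19:45971253-45978437, plus strand), a close relative of FOS, was rarer than it in every group. It was detected in 12.2% of Hoechst run, 32.3% of benzene run and 43.2% of imatinib run libraries. JUN (chr1:59242517-59249720, minus strand) was detected in 46.3%, 40% and 66.3% in the same order. JUNB (chr19:12902300-12904129, plus strand), an AP-1 subunit that can restrain JUN, was detected in 42.7%, 30.8% and 35.8%. JUN and JUNB were low in most libraries and high in few, with a median of 1.8 and a maximum of 270 CPM for JUN and a median of 1.18 and a maximum of 171 CPM for JUNB in the Hoechst run. Their CVs of 3.32 and 2.99 lay near the 2.81 and 3.08 of genes of like level. The CV of FOS was 2.72, 1.78 and 1.22 in the Hoechst, benzene and imatinib runs, where genes of like level had 2.58, 1.28 and 0.62. For FOSB it was 3.97, 2.21 and 2.61 in these runs, against 4.73, 3.02 and 1.66.

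IER2 (chr19:13261225-13265725, plus strand) was seen in most libraries of every run, in 86.6% of Hoechst run, 75.4% of benzene run and 80% of imatinib run libraries. Its CV was 1.30, 1.65 and 1.24 in these runs, each below the 1.69, 2.30 and 1.66 of genes of like level. IER3 and PHLDA1 were highest in the Hoechst run. IER3 was detected in 15 of 82 libraries there, at a summed level of 3.28 CPM, and was at 0.940 CPM in the benzene and 0.150 CPM in the imatinib run. PHLDA1 reached 7.70 CPM in the Hoechst run, with 45.4% of its reads in 1 library, and 0.317 and 1.24 CPM in the benzene and imatinib runs.

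**Figure D2:**
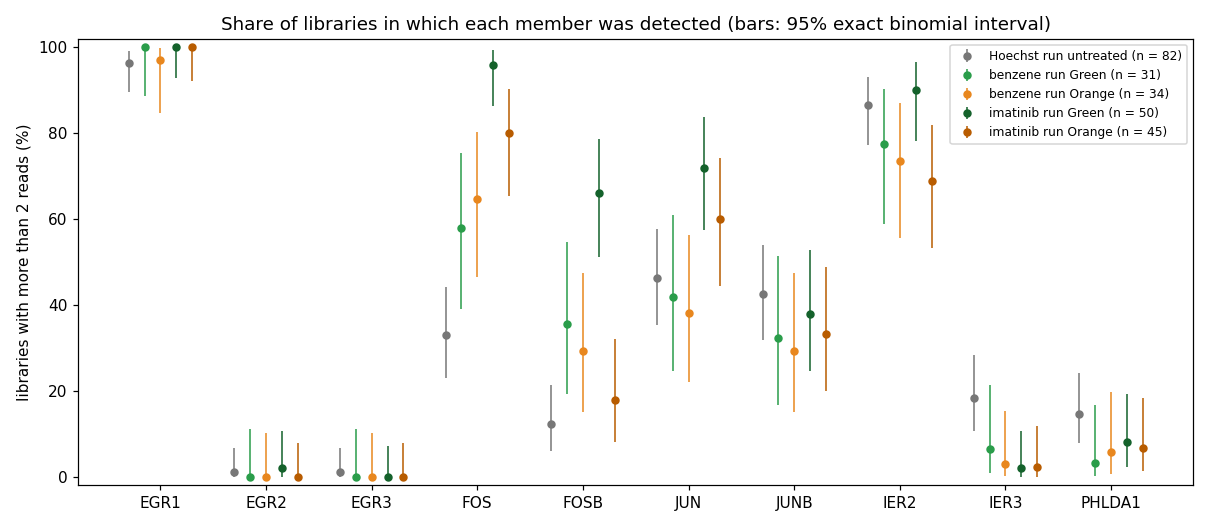
Share of kept libraries with more than 2 reads of each member, in percent, by group; bars are exact (Clopper-Pearson) 95% binomial intervals. EGR1 is near 100% everywhere, FOSB drops from 66% in imatinib run Green to 17.8% in Orange, and EGR2 and EGR3 lie at the bottom.

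Exons of some members overlap those of other genes, and the kit used does not mark strand. Reads there can be ambiguous between genes, and since only reads unique to a gene were counted, some may be missing from the counts. In GENCODE v44 on GRCh37, exons of other counted genes, on either strand, cover 14.2% of the JUNB exons (HOOK2), 30.7% of IER2 (an unnamed gene), 38.9% of IER3 (IER3-AS1 and HCG20) and 9.35% of PHLDA1 (PHLDA1-AS1). The exons of EGR1, FOS, FOSB and JUN are free of such overlap.

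The first comparison asked how the members differed between cells given imatinib and untreated cells of the same run. The 5 members EGR1, FOS, FOSB, JUN and IER2, were lower in Orange by at least 2-fold, and JUNB was higher by less than that. Members had to be detected in at least 20% of the run's libraries to be compared, which 6 of the 10 passed in each CellTracker run. The count of 5 of 6 stands beside 3.83% of the 10834 genes compared in that run that were lower by at least 2-fold, and the count of 0 members higher beside 3.05%. The median log2 ratio of the 6 was -1.35, with 1 CPM added to each level, while the median of all genes was -0.02. At a limit of 1.5-fold, applied like the other limits to CPM + 1, the same 5 members were lower and 0 were higher, beside 11.1% and 9% of all genes. JUNB lay just under that limit, with a log2 ratio of 0.57, although its plain sums differed 1.56-fold.

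EGR1 in the 50 Green libraries ran from 21.6 over a median of 389 to 1436 CPM, and in the 45 Orange libraries from 2.06 over 159 to 555 CPM. The ranges overlapped, but only 5 Orange libraries were above the Green median and 32 were below the Green lower quartile. Summed over libraries, the level was 482 CPM in Green and 178 in Orange, 2.70-fold lower (counting interval 2.64 to 2.77). Every library of both stains had EGR1 at full depth, and with libraries thinned to 300000 reads it was detected in 100% of Green and 86.7% of Orange libraries. In Orange 6 libraries had under 10 CPM, a range in which no Green library lay.

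FOS differed by a like amount. Green libraries ran from 0.899 over a median of 325 to 1642 CPM and Orange libraries from 0 over 57.2 to 1872 CPM. The highest single library was thus an Orange one, and it held 16.5% of the Orange reads of FOS. The sums were 441 and 182 CPM, 2.42-fold lower in Orange (2.37 to 2.48). Where FOS was detected, in 96% of Green and 80% of Orange libraries, its median was 338 and 107 CPM. Orange libraries at 100 CPM or more numbered 18 of 45, against 37 of 50 in Green. In Orange the level went with title number. Most Orange libraries with low numbers were low in FOS, and most with higher numbers were higher. In Green it went the other way, and most of the highest Green levels were at low numbers. Orange was thus lower among low-numbered libraries, while among higher-numbered ones typical Orange libraries were not below Green ones. The part of this in the difference between stains was not tested.

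FOSB showed the widest difference of the 6 members compared. Its Green libraries ran from 0 over a median of 12.2 to 484 CPM, and its Orange libraries from 0 over 0 to 185 CPM. It was detected in 33 of 50 Green libraries (66%, exact interval 51.2 to 78.8%) and in 8 of 45 Orange libraries (17.8%, 8.0 to 32.1%). The sums of 39.5 and 5.20 CPM differed 7.59-fold (6.73 to 8.60), and 60% of the Orange reads came from 1 library. Without the highest library of each stain the sums were 30.6 and 2.12 CPM. With every library thinned to 300000 reads, FOSB was detected in 54% of Green and 11.1% of Orange libraries, FOS in 96% and 71.1%, and IER2 in 70% and 46.7%.

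JUN ran from 0 over 6.29 to 174 CPM in Green and from 0 over 4.72 to 44.2 CPM in Orange. The medians were close, and the difference lay in the upper range, with an upper quartile of 22.3 CPM in Green and 6.12 in Orange. Its sums of 21.3 and 5.43 CPM differed 3.91-fold (3.45 to 4.44). With each library weighted equally, the mean of log2(CPM + 1) was 3.04 ± 2.04 (SD, n = 50) in Green and 1.98 ± 1.49 (SD, n = 45) in Orange, a difference of -1.06.

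JUNB went the other way in its sum, with 6.14 CPM in Green and 9.58 in Orange, 1.56-fold higher (1.37 to 1.78). Its libraries ran from 0 over 0.633 to 114 CPM in Green and from 0 over 0.616 to 153 CPM in Orange, so that the medians were nearly equal. In each stain 1 library held a large share of the reads, 45.5% in Green and 32.6% in Orange. The mean of log2(CPM + 1) differed by 0.10, against SDs among libraries of 1.69 and 2.00.

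IER2 ran from 0 over 27.5 to 152 CPM in Green and from 0 over 6.73 to 116 CPM in Orange, and 8 Orange libraries were above the Green median. It was detected in 90.0% of Green and 68.9% of Orange libraries, and the sums of 33.7 and 13.6 CPM differed 2.47-fold (2.27 to 2.68). Among the members below the detection limit, IER3 had 9 reads in each stain, PHLDA1 had 1.62 CPM in Green and 0.812 in Orange, with 82.6% of the Orange reads in 1 library, and EGR2 had 5 reads in Green and 0 in Orange.

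**Figure D3:**
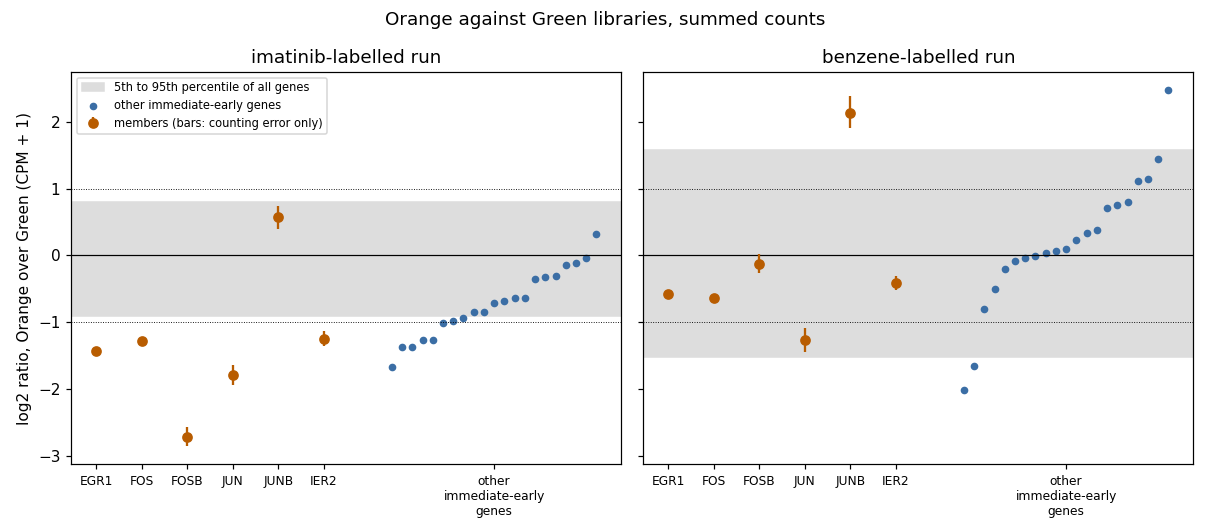
Log2 ratio of Orange over Green (CPM + 1 of summed counts) in the imatinib-labelled and benzene-labelled runs, for 6 members (orange, with 95% counting intervals) and 21 other immediate-early genes (blue, in order of size). Grey spans the 5th to 95th percentile of all genes and dotted lines mark 2-fold; 5 members lie under the lower dotted line in the imatinib run and 1 in the benzene run.

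Libraries of the imatinib run also differed in how many members they held at the same time. Green libraries had a median of 5 of the 10 members detected, with a range of 2 to 7, and Orange libraries a median of 4, with a range of 1 to 6. At least 5 members were detected in 30 of 50 Green libraries (60%) and in 12 of 45 Orange libraries (26.7%). The benzene run had 19.4% of Green and 17.6% of Orange libraries with 5 or more, and the Hoechst run 22.0%.

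Other genes of the same class were compared from a list of 36, of which 21 were detected in each run. In the imatinib run 6 of the 21 were lower by at least 2-fold and 0 were higher, beside 3.83% and 3.05% of all genes. Of the 21, 20 lay below a log2 ratio of 0, where 52.8% of all genes did, and the median was -0.71. The largest differences were those of ATF3, a stress-induced bZIP factor, at -1.67 (11.6 CPM in Green, 2.96 in Orange), CSRNP1, a nuclear protein induced by AXIN1, at -1.37, and DUSP1, a phosphatase that inactivates MAP kinases, at -1.37. DUSP1 was detected in 80% of Green and 51.1% of Orange libraries, with summed levels of 68.4 and 25.9 CPM.

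Of 12 genes of the feedback response to ERK 4 were detected in the imatinib run, and only ETV5, an ETS factor, was lower by at least 2-fold (log2 ratio -1.02). ETV4, its relative, was at 0.52 and SPRED1, an inhibitor of RAS signalling, at -0.37 (-0.74 without the highest library of each stain). The genes that encode the cascade itself, such as kinases and serum response factor, had a median of 0.09 over 22 detected of 23, with 0 lower and 1 higher. The higher gene was MAPK3, the gene for ERK1, at 1.63 (1.62 CPM in Green and 7.09 in Orange), detected in 18% and 33.3% of libraries. SRF, at -0.78 (-0.42 without the highest library of each stain), and RPS6KA1, the kinase RSK1, at 0.68, followed. With each library weighted equally, SRF differed by 0.04 and RPS6KA1 by -0.21. RPS6KA1 was detected in 44.4% of Orange and 64% of Green libraries. All 10 heat shock genes stayed within 2-fold, with a median of -0.13; the widest were DNAJB1 at 0.46, HSPA8 at -0.26 and HSPB1 at -0.24.

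The second comparison asked the same of cells given benzene, a solvent whose metabolites are toxic to blood cell precursors. Here JUN was lower and JUNB higher by at least 2-fold, and the other 4 members lay within 2-fold. With each library weighted equally the call moved to another gene: EGR1 was lower at -1.04, while JUN was at -0.42 and JUNB at 0.35. In this run 10.6% of the 9530 genes compared were lower and 11.6% higher by at least 2-fold, so that 1 of 6 members in each direction is near the background. The median log2 ratio of the 6 was -0.50 and that of all genes 0.04. At 1.5-fold, JUN and FOS were lower and JUNB higher, beside 19.7% and 22.7% of all genes.

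EGR1 ran from 5.20 over a median of 159 to 1066 CPM in the 31 Green libraries and from 0.726 over 93.95 to 1364 CPM in the 34 Orange libraries. Its sums were 276 and 184 CPM, 1.5-fold lower in Orange (1.46 to 1.54), and 11 Orange libraries were above the Green median. FOS had sums of 218 and 140 CPM, 1.56-fold lower in Orange (1.51 to 1.61). At full depth it was detected in a larger share of Orange (64.7%) than Green libraries (58.1%). With libraries thinned to equal depth as above, the order reversed, with FOS in 38.2% of Orange and 48.4% of Green libraries. Where FOS was detected at full depth, its median was 61.4 CPM in Orange and 252 in Green. FOSB was nearly level, at 17.9 and 16.4 CPM, and its log2 ratio of -0.12 became 0.19 without the highest library of each stain.

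JUN and JUNB, the pair that passed 2-fold, each rested on few libraries. JUN had 14.7 CPM in Green and 5.54 in Orange, 2.65-fold lower (2.29 to 3.08), with 57.5% and 60% of the reads in 1 library of each stain. Its medians were 0.805 and 0.801 CPM. JUNB had 3.69 CPM in Green and 19.6 in Orange, 5.31-fold higher (4.47 to 6.33), with 49.1% of the Orange reads in 1 library. It was detected in 32.3% of Green and 29.4% of Orange libraries, and its equal-weight difference in log2(CPM + 1) was 0.35, against SDs of 1.49 and 2.41. Without the highest library of each stain the log2 ratios were -1.19 for JUN and 1.56 for JUNB. IER2 had 37.5 and 28.03 CPM, with a log2 ratio of -0.41, and was detected in 77.4% of Green and 73.5% of Orange libraries. The ranges of all 6 members overlapped between stains.

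Of the same 36 immediate-early genes, 21 were detected in the benzene run, with 2 lower, 4 higher and a median log2 ratio of 0.10. Over all genes compared in this run, 10.6% were lower and 11.6% higher by at least 2-fold. The counts of each list in this paragraph stand beside these shares. TRIB1, a pseudokinase, was at 2.48, FOSL1, another FOS relative, at -2.02 and DUSP1 at -1.65; 66.96% of the Orange and 64.7% of the Green reads of FOSL1 came from 1 library each. Feedback genes had 2 lower of 5 detected, SPRY4 at -4.49 and SPRED2 at -1.38, both inhibitors of RAS signalling, and ETV4 at -0.62. In Green, 63.8% of SPRED2 reads and 42.8% of SPRY4 reads came from 1 library each. Without the highest library of each stain SPRED2 was at -0.64, within 2-fold, and SPRY4 at -4.11; SPRY4 had a median of 0 CPM in both stains and an equal-weight difference of -1.01. Cascade genes had 2 lower and 3 higher of 22, with MAP2K2 at 2.94 and BCR at 1.73. MAP2K2 had 61.7% and BCR 46.7% of its Orange reads in 1 library, and without the highest library of each stain they were at 2.03 and 1.44. The equal-weight difference of MAP2K2 was 0.25, and it was detected in 26.5% of Orange and 32.3% of Green libraries. Without the highest library of each gene, 0 cascade genes were lower and 4 higher. Heat shock genes had none past 2-fold among 10, with DNAJB1 at 0.77, HSPB1 at 0.72 and HSPH1 at -0.61.

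The 2 runs had separate Green controls, and their values can be set side by side without shared samples, but whether the runs differed could not be tested. EGR1 was at -1.43 in the imatinib and -0.58 in the benzene run, FOS at -1.27 and -0.63, FOSB at -2.71 and -0.12, and IER2 at -1.24 and -0.41. The Green libraries themselves were not alike. FOS had a median of 325 CPM in Green libraries of the imatinib run and 9.45 in those of the benzene run, and FOSB was detected in 66% and 35.5%.

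How members varied together from library to library was described by Spearman correlations of CPM among the 6 widely detected members, within each group. Libraries of a group share a run, and their levels add up to the same total. Depth varied within groups, most in the Hoechst run (50358 to 2043351 reads), where it correlated with the levels of JUN (0.38), IER2 (0.39) and EGR1 (0.30). In imatinib run Orange, FOS correlated at 0.57 with the ERCC share and 0.47 with the mitochondrial share. In Green of that run these were -0.34 and -0.37. The part of these measures in the correlations of members was not tested. The median over the 15 pairs was 0.11 in the Hoechst run (n = 82), 0.19 and 0.11 in benzene run Green and Orange (n = 31 and 34), and 0.17 and 0.20 in imatinib run Green and Orange (n = 50 and 45). Most pairs were therefore weakly related, and in counts this sparse a weak correlation is no finding.

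FOS and FOSB had correlations of 0.44 and 0.44 in the benzene run, 0.45 in imatinib run Green and 0.30 in Orange, against 0.11 in the Hoechst run, where both were rare. With libraries thinned to 300000 reads these were 0.51, 0.49, 0.42, 0.26 and 0.09. In imatinib run Green, FOSB was detected in 19 of the 25 libraries with FOS above its median and in 14 of the 25 others. In imatinib run Orange these counts were 6 of 22 and 2 of 23, and in the benzene run 8 of 15 and 3 of 16 for Green and 8 of 17 and 2 of 17 for Orange. FOS also went in part with title number in the benzene run, and in opposite directions in imatinib run Green and Orange. The part of this in these correlations was not tested. EGR1 and FOS, the most abundant pair in the CellTracker runs, had correlations of 0.21 and 0.03 in the benzene run and 0.30 and 0.23 in the imatinib run. In the Hoechst run, where FOS was detected in 32.9% of libraries, their correlation was -0.02.

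**Figure D4:**
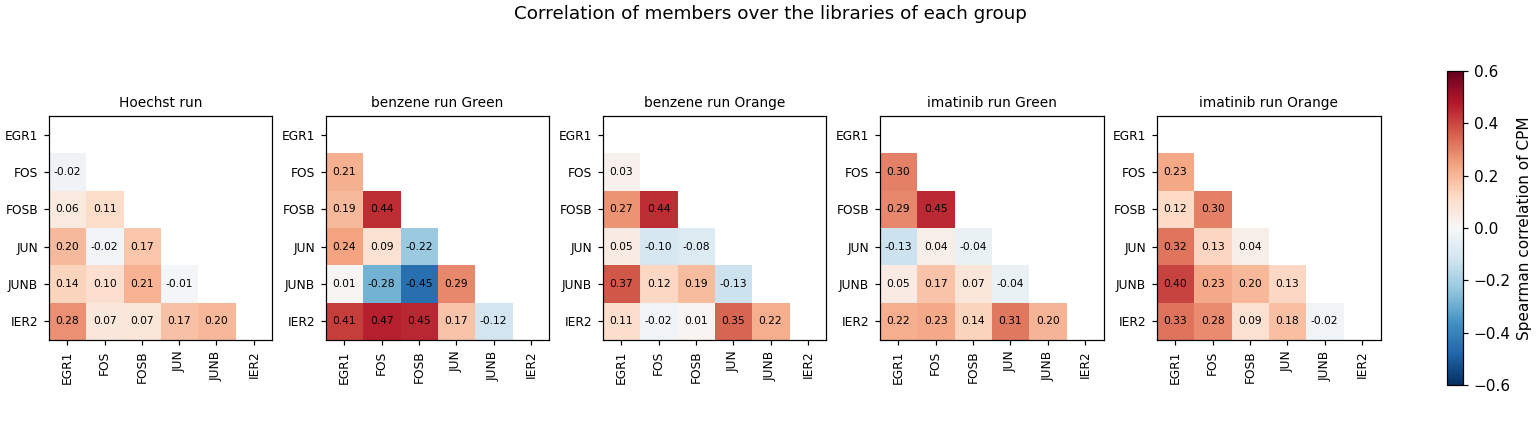
Spearman correlation of CPM between members over the kept libraries of each group, with the value printed in each cell. FOS and FOSB stay between 0.30 and 0.45 in all 4 CellTracker groups, and most other cells are pale. Other pairs reach like sizes in single groups, such as FOS-IER2 (0.47) and FOSB-JUNB (-0.45) in benzene run Green and EGR1-JUNB (0.40) in imatinib run Orange.

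Genes whose pattern over the 50 imatinib run Green libraries was most like a member's were sought among 10878 genes detected in at least 20% of them, by Spearman correlation. No member was among the 3 nearest genes of another. For EGR1 these were RNASEK, DENND4B and MXD1, for FOS MND1, ZDHHC13 and FAM210A, and for FOSB ERCC5, FRG1BP and CDK12. For JUN they were HERPUD1, ZBTB24 and SLC9A8, for JUNB RAB5IF, HSP90AB3P and RSL24D1, and for IER2 TBRG4, NUBP2 and BBLN. The 18 correlations lay between 0.45 and 0.59, and over the 45 Orange libraries of the same run the same pairs lay between -0.44 and 0.37.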

How the data were processed

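Gene expression was measured in K562 cells captured by Fluidigm C1, and in bulk samples prepared alongside, with SMARTer cDNA and Nextera XT libraries. The authors trimmed reads, mapped them to GRCh37 with ERCC sequences by HISAT2, marked duplicates with Picard 1.92, and counted reads unique to Ensembl genes with featureCounts of Subread 1.5.0, giving the deposited counts. The deposited CPM table is the authors' scaling of the same counts to 1000000 reads; it differed from CPM recomputed here by at most 4.97e-07 of a value. In the table, 4 columns matched no sample title and were not used, and 4 labelled samples had no column.

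Members and lists were chosen with earlier results of these data known. Here levels are CPM, counts per 1000000 reads on genes without ERCC. A library was kept if its 500 highest genes took no more than 70% of its reads. Counts were summed over the libraries of a stain, and ratios are log2 of CPM + 1; folds are plain ratios of the sums. A gene was compared when over 2 reads were present in at least 20% of a run's libraries. Named genes were all members, the 3 widest ratios of each companion list per run, and the 3 nearest genes to each detected member over imatinib run Green libraries. Of the genes this rule names, 1 is not reported here. Intervals are exact (95%) and cover counting error only; no treatment test was made. The ratio and correlation steps were tested on simulated data. Alternatives used edgeR 4.0.16 and DESeq2 1.42.0 factors in R 4.3.3; the rest ran in Python 3.11.15 with pandas 2.3.3 and scipy 1.17.1. Which libraries were fresh, fixed or bulk is not given in the sources used here for single libraries.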

Additional observations from a re-analysis of the deposited data

How the results depend on the processing

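No paired analysis was possible because the libraries of a stain carry no replicate number and no result came from a test. In the imatinib run the count of 5 members lower by at least 2-fold was 4 with 10 CPM added, where IER2 was at -0.89, and 5 under every other alternative; none was higher. The median log2 ratio of -1.35 moved to -1.68 with the mean of log2(CPM + 1), -1.12 with 10 CPM added, -1.32 with edgeR TMM factors, -1.45 without the highest library of each gene, and -1.31 with libraries thinned to 300000 reads. In the benzene run the median of -0.50 moved to -0.64 with a 60% limit on the top 500 genes, -0.36 with the mean of log2(CPM + 1), -0.41 with ERCC as the reference and -0.33 after thinning. The count of benzene run members lower by at least 2-fold was 2 with the 60% limit, 0 with 10 CPM added and 2 at a limit of 1.5-fold; that of members higher was 0 with the mean of log2(CPM + 1), under which JUNB was at 0.35 in place of 2.13, and the 1 lower member was EGR1 (-1.04) and not JUN (-0.42). In an alternative chosen after seeing the data, without the highest library of each gene, the benzene run had 1 feedback gene lower in place of 2, 0 cascade genes lower in place of 2 and 1 heat shock gene higher in place of 0 (HSPA1B, named after its value was seen). The cause was not tested. Correlations of member pairs moved in 11 of 150 alternatives. Of 132 ratios of single members under alternatives, 62 were labelled as moved, but the label also took in shifts inside the counting interval. With all libraries, FOSB in the imatinib run was so labelled at -2.711 against -2.707, with an interval of -2.86 to -2.56. Each of the 6 compared members kept its sign in all 11 alternatives in both runs, except FOSB in the benzene run, which kept it in 10. The ratios of FOSB in that run lay between -1.42 (60% limit) and 0.19 (without the highest library of each stain). Shares of libraries depend on depth: FOS was detected in 32.9% of Hoechst run libraries at full depth and in 20.0% after thinning. Depth limits what can be said of EGR2, EGR3, IER3 and PHLDA1.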
